A study of Mus musculus with 8 samples.

Results

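The genes described here are 41 markers of the leukocytes that reside in the cornea, out of 54532 genes in the expression table. They were taken from a list of symbols that was chosen with earlier results of these data known. The symbols were matched to the Ensembl identifiers of the table through an annotation of the same genome build, GRCm38, without use of any measured value. By lineage they are 7 pan-leukocyte and myeloid markers, 12 macrophage markers, 6 dendritic and Langerhans cell markers, 4 mast cell markers, 5 T cell markers, 3 NK cell markers, 2 B cell markers and 2 neutrophil markers. Aif1 and Lst1, both counted as macrophage markers, lie in the chromosome 17 locus that the study mapped for corneal lymphatic vessel traits, so each count is also given without them.

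Total RNA was sequenced from naive corneas, without treatment or injury, with 4 samples from BALB/cN mice (labelled Balb/c) and 4 from C57BL/6N mice. All were adult male mice of inbred strains that carry no transgene, and the study names no other difference in treatment between the strains. Library totals recovered from the table were 36707682 to 41151332 reads in BALB/cN and 29679607 to 36983960 reads in C57BL/6N. Nothing in the labels says how many animals gave the corneas, so p-values measure the spread between these 8 samples.

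The healthy cornea is transparent and free of blood and lymphatic vessels in its centre, but it is not free of leukocytes. Macrophages lie in the stroma among the keratocytes, which are the resident fibroblast-like cells that make the collagen and keratan sulfate matrix, while dendritic cells and a small number of Langerhans cells lie in the epithelium, mostly towards the limbus. Mast cells, T cells and other lymphocytes are sparse and mainly limbal in the uninjured eye. In whole-tissue RNA such cells are a small admixture, and fewer cells of a type cannot be told apart from less RNA per cell.

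The 8 corneas differed in more than strain. Transcripts of a list of 9 stromal keratocyte genes summed to 309208 to 331590 normalized reads in 3 BALB/cN corneas and to 99532 in BALB/cN replicate 2, and they summed to 443134 and 433482 in C57BL/6N replicates 1 and 2 but to 51018 and 54462 in replicates 3 and 4. Kera, which encodes the stromal proteoglycan keratocan, had 1784 reads in BALB/cN replicate 2 and 196 and 553 reads in C57BL/6N replicates 3 and 4, against 28603 to 41851 reads in the other 5 corneas. BALB/cN replicates 1 and 4 in addition held the most lens and pigment cell transcripts, and are called the corneas with lens and pigment transcripts below. Their pigment cell lists summed to 20118 and 45229 normalized reads and their lens lists to 7974 and 2999. The other corneas of both strains held fewer but not none, at 477 to 3993 for pigment cells and 219 to 585 for lens. Of 8 conjunctival genes, 5 were called lower in BALB/cN, against 2.91% of all genes, and 0 higher. The 5 include Muc4, at 629980 normalized reads in BALB/cN and 970410 in C57BL/6N. That is near the level of the corneal keratin Krt12, at 857862 and 860427, so Muc4 does not mark conjunctiva alone here. The 3 conjunctival genes not called include Muc5ac, with 34 to 555 reads in BALB/cN and 0 to 4 in C57BL/6N (adjusted p = 0.0225), and Krt8 (adjusted p = 0.0111), whose means were higher in BALB/cN. Values with and without these corneas are given below where they bear on a marker.

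Between the strains 3 single markers were called, and the leukocyte markers as a group were not tested. Of the 41 markers, 7 were at 0 in all corneas, 34 had reads and 27 reached the minimum level for testing, a mean rlog value of at least 0. The rlog value is a log2-scale expression value that is normalized for library size and shrunk towards the gene's mean where reads are few. Among the 27 tested markers, 3 were called at an adjusted p of 0.01 or less, Aif1, Lst1 and Epcam, against 5.74% of the 25402 genes tested in all. All 3 were higher in BALB/cN, where the share over all genes was 2.83%, and 0 markers were called lower, against 2.91%. Without Aif1 and Lst1, 1 of 25 tested markers was called.

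The median rlog difference, BALB/cN minus C57BL/6N, was 0.15 over the 27 tested markers, 0.09 without Aif1 and Lst1, and 0.01 over all genes tested. A higher mean value in BALB/cN was found in 18 of the 27 markers, against 52.8% of all genes. With the keratocyte level of each cornea as a covariate, the median over the markers was 0.00 and 14 of 27 had the higher mean in BALB/cN, against 51.5% of all genes. This covariate, here and below, is the mean rlog value of the 9 keratocyte genes. The list includes Ptgds, with 4492 and 11017 reads in BALB/cN replicates 1 and 4 but 56 and 9 in replicates 2 and 3. The list mean was 12.2 in BALB/cN replicate 3 and 13.0 in replicate 4, though Kera had 28603 and 29692 reads there. The covariate thus does not follow keratocyte content alone.

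**Figure D1:**
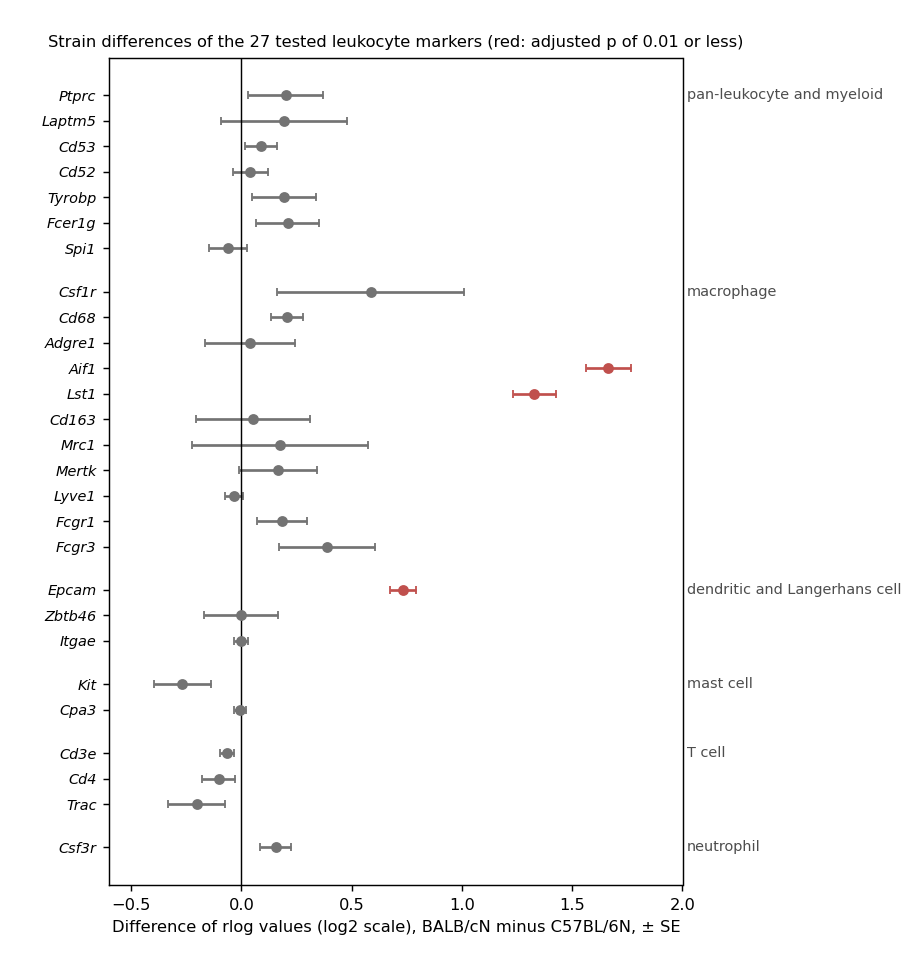
Difference of rlog values between BALB/cN and C57BL/6N (horizontal axis, log2 scale) for each of the 27 tested markers, grouped by lineage, with its standard error from limma. Only the red points, Aif1 at 1.66, Lst1 at 1.33 and Epcam at 0.73, have an adjusted p of 0.01 or less, and the grey points lie between -0.27 and 0.59.

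Aif1 showed the largest strain difference of all markers. Aif1 encodes allograft inflammatory factor 1, also known as IBA1, a calcium-binding protein of macrophages and microglia that bundles actin and is the usual stain for tissue macrophages. It had 383, 437, 389 and 294 reads in the BALB/cN corneas and 53, 30, 36 and 40 reads in the C57BL/6N corneas. The strains were completely separated, and the lowest BALB/cN cornea held several times the reads of the highest C57BL/6N cornea. Normalized for library size, the level was 340 ± 43.3 reads in BALB/cN and 43.0 ± 9.96 in C57BL/6N (SD, n = 4 each), a ratio of 7.92. The rlog difference was 1.66 ± 0.10 (SE; limma, adjusted p = 6.58e-06), and voom on recovered reads, which does not shrink the values, gave a log2 difference of 3.0 with a 95% interval of 2.45 to 3.55.

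Lst1, leukocyte specific transcript 1, encodes a small membrane protein of the myeloid lineage. Its reads were 338, 451, 392 and 320 in BALB/cN and 62, 65, 71 and 58 in C57BL/6N. As for Aif1, no cornea of one strain reached the range of the other. The normalized level was 341 ± 49.0 against 69.8 ± 13.4 reads (SD, n = 4 each), 4.88 times as high in BALB/cN. The rlog difference was 1.33 ± 0.10 (SE; limma, adjusted p = 2.47e-05), and the log2 difference by voom was 2.30 with a 95% interval of 1.83 to 2.77.

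Both genes lie on the reverse strand of chromosome 17 in GRCm38, Aif1 at chr17:35170991-35176068 and Lst1 at chr17:35185095-35188439, with 9026 bases between them. The region belongs to the major histocompatibility complex, next to the genes of the tumour necrosis factor cytokines. Within 50 kb on either side, 15 other genes were tested and 0 were called, with rlog differences of -0.42 to 0.45 and a smallest adjusted p of 0.0137. That smallest value was of Tnf, at -0.34, and the highest difference was of Lta, at 0.45 with an adjusted p of 0.0226. Prrc2a, the large gene that starts 11.2 kb from the start of Aif1, had a difference of -0.01 ± 0.05 (SE), and Ltb, the nearest tested gene on the far side of Lst1, 0.10 ± 0.09.

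**Figure D2:**
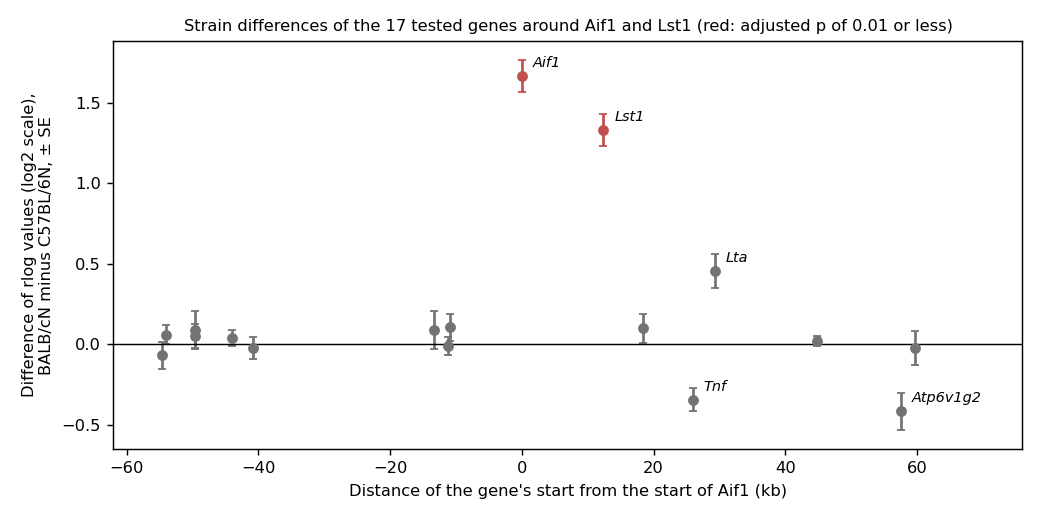
Difference of rlog values between the strains (vertical axis, log2 scale, ± SE) of the 17 tested genes within 50 kb of Aif1 and Lst1, against the distance in kb of each gene's start from the start of Aif1. Aif1 and Lst1, in red, lie at 1.66 and 1.33, while the other 15 genes lie between -0.42 and 0.45.

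Chromosome 17 holds 4 of the 41 markers, Adgre1, Aif1, Lst1 and Epcam, and all 3 called markers are among them. Over all tested genes, 8.23% of those on chromosome 17 and 5.62% of those elsewhere were called. Epcam lies at chr17:87635979-87651129, far from Aif1 and Lst1, and Adgre1 at chr17:57358691-57483527 was not called.

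Promoter sequences are shown for the called markers Aif1 and Epcam. They are those of the reference genome, and sequences of the strains were not compared, so they do not bear on the strain difference. RefSeq's promoter table (GRCm38.p6, 250 bases before to 50 bases after the start) held 30 of the 41 markers, Aif1 and Epcam among them, and has no entry under Lst1. Capitals mark the letters GAGGAA or their reverse complement TTCCTC, the core recognized by PU.1, the myeloid transcription factor that Spi1 encodes, and the sequences are written 5′ to 3′ on the strand of the gene, at chr17:35176003-35176302 (reverse strand) for Aif1 and chr17:87635729-87636028 (forward strand) for Epcam.
Aif1: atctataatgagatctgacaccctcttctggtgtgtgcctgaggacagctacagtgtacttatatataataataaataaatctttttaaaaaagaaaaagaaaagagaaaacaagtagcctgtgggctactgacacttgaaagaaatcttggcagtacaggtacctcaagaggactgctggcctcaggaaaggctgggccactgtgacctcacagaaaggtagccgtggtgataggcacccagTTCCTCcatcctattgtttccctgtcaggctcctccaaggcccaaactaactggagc
Epcam: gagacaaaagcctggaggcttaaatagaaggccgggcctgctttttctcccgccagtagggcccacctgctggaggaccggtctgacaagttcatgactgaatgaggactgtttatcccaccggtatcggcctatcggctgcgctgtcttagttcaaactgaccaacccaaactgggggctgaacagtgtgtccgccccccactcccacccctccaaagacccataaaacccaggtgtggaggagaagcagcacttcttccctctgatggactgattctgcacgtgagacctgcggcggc
The Aif1 window held the letters 1 time and the Epcam window 0 times. At least 1 match on either strand was found in 18 of the 30 markers with a promoter (60%) and in 31.3% of all genes in the table, and of all 32851 promoters 28.3% held one. Among tested markers that did not pass the test, the windows ranged from 0 matches, as in Fcer1g, Cd163 and Mertk, to 3 in Mrc1.

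Epcam was the third marker called. It encodes an adhesion molecule of epithelial cells that Langerhans cells of the skin and mucosa also carry. Its reads were 3629, 4290, 3623 and 3308 in BALB/cN and 1575, 1723, 1401 and 1615 in C57BL/6N, so that the strains did not overlap. The normalized level was 3369 ± 283 against 1702 ± 69.9 reads (SD, n = 4 each), a ratio of 1.98, with an rlog difference of 0.73 ± 0.06 (SE; limma, adjusted p = 3.82e-05). Cd207, which encodes langerin and defines Langerhans cells, had 4 reads in C57BL/6N replicate 2 and 0 reads in the other 7 corneas. Epcam at 1535 normalized reads per kb of exon in BALB/cN was thus measured almost without Cd207, at 0 per kb in BALB/cN and 0.66 in C57BL/6N.

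The other 4 dendritic cell markers with reads in more than 1 cornea were low and gave no call. Zbtb46, a transcription factor of classical dendritic cells that endothelial cells share, had 18 to 57 reads in BALB/cN and 15 to 79 in C57BL/6N, with an rlog difference of 0.00 ± 0.17 (SE). Itgae, the CD103 integrin chain of some dendritic cells and of T cells in epithelia, had at most 7 reads in any cornea. Flt3, the receptor that dendritic cell precursors need, and Cd209a, a lectin of monocyte-derived dendritic cells, had totals of 3 and 7 reads over all 8 corneas. Flt3 and Cd209a were under the minimum level and were not tested.

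**Figure D3:**
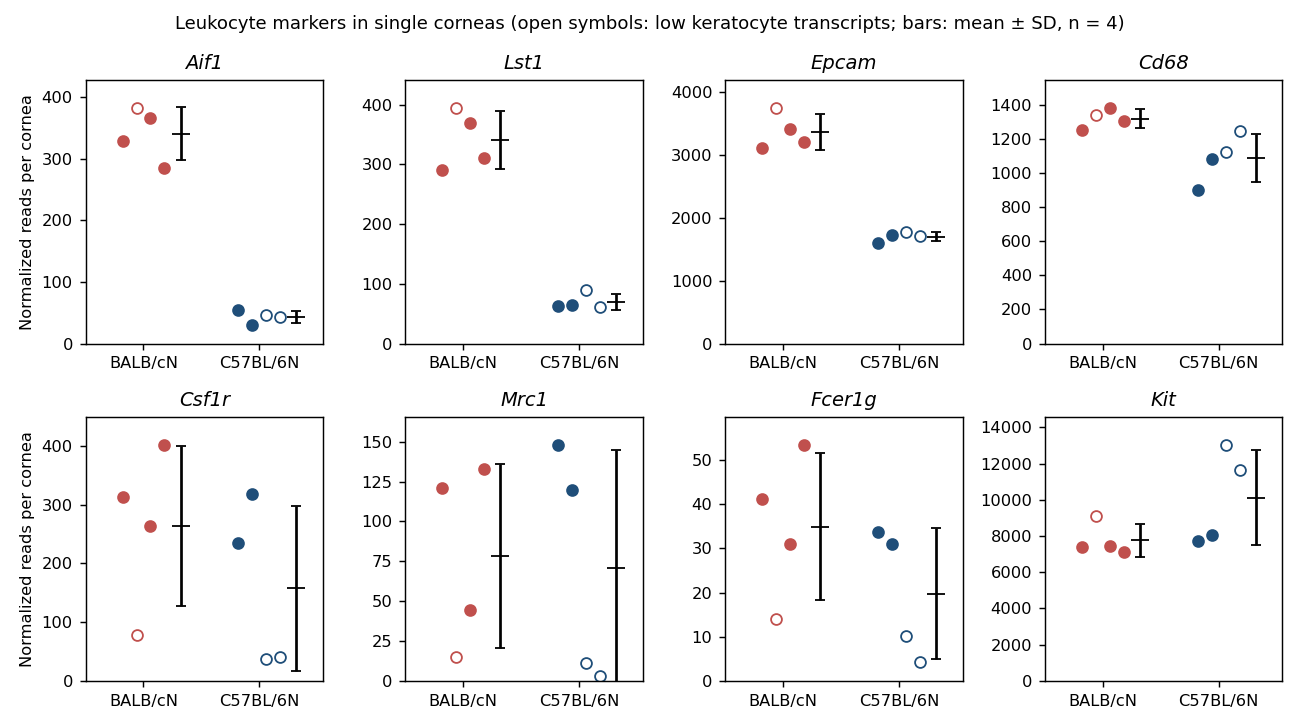
Normalized reads of 8 markers in each cornea, with 1 panel per gene and the mean ± SD of each strain (n = 4). Open symbols are the 3 corneas low in keratocyte transcripts, which sit at the bottom of their strain for Csf1r, Mrc1 and Fcer1g and at the top for Kit, while Aif1, Lst1 and Epcam separate the strains with open and filled symbols alike.

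The remaining macrophage markers varied between corneas of one strain, and no strain difference passed the test. Of the 9 tested macrophage markers other than Aif1 and Lst1, 8 had the higher mean in BALB/cN and 1 the lower, 0 were called, and the median rlog difference was 0.17. Csf1r encodes the receptor for the growth factor on which tissue macrophages depend. It had 366, 90, 281 and 414 reads in BALB/cN and 230, 318, 30 and 39 in C57BL/6N. The 3 low values were those of the corneas low in keratocyte transcripts, 1 in BALB/cN and 2 in C57BL/6N. The rlog difference was 0.59 ± 0.42 (SE; limma, adjusted p = 0.451), with a 95% interval of -0.37 to 1.54. Within the 5 corneas high in keratocyte transcripts it was 0.16 (adjusted p = 0.570).

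Mrc1, the mannose receptor CD206 of resident tissue macrophages, had 141, 17, 47 and 137 reads in BALB/cN and 145, 120, 9 and 3 in C57BL/6N. The low values again fell on the same 3 corneas, and the strains overlapped over nearly their whole range. Its rlog difference was 0.17 ± 0.40 (SE; limma, adjusted p = 0.836), and it was -0.28 within the corneas high in keratocyte transcripts. Cd163, the haemoglobin scavenger receptor, had 73, 6, 2 and 56 reads against 31, 64, 4 and 3. Adgre1, which encodes F4/80, the classical antigen of mouse macrophages, had 38, 0, 37 and 34 reads against 44, 48, 1 and 3. For both genes the mean difference was near 0, at 0.05 ± 0.26 and 0.04 ± 0.20 (SE).

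The Fc receptors for immunoglobulin G had higher means in BALB/cN, without passing the test. Fcgr3, the low-affinity activating receptor, had 85, 34, 52 and 104 reads in BALB/cN and 59, 55, 6 and 4 in C57BL/6N, an rlog difference of 0.39 ± 0.22 (SE; limma, adjusted p = 0.324). Its coding sequence is closely related to that of Fcgr2b, so that reads could be split between them. Fcgr1, the high-affinity receptor, had 42, 1, 15 and 16 reads against 12, 9, 0 and 0, a difference of 0.18 ± 0.11. By voom, which does not shrink the values, the log2 differences were 1.51 for Fcgr3 and 1.95 for Fcgr1. Their 95% intervals were wide, at -0.22 to 3.25 and -1.27 to 5.17. In both genes C57BL/6N replicates 3 and 4 were the lowest corneas of their strain. Within the corneas high in keratocyte transcripts the rlog differences were 0.14 for Fcgr3 and 0.17 for Fcgr1. Without BALB/cN replicates 1 and 4, which held lens and pigment transcripts, they were 0.16 and 0.04.

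Mertk, a receptor with which macrophages and other phagocytes bind dying cells, was the highest of these genes after Cd68, with 432 to 816 reads in BALB/cN and 260 to 582 in C57BL/6N and a difference of 0.17 ± 0.18 (SE). Lyve1, the hyaluronan receptor of lymphatic vessels and of a subset of resident macrophages, had at most 8 reads in any cornea, and Marco, a scavenger receptor of alveolar and lymphoid macrophages, 4 reads in 1 cornea.

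Cd68 departed from this pattern. It encodes a lysosomal membrane protein that is abundant in macrophages and is found in other cells rich in lysosomes. Its reads were 1459, 1531, 1467 and 1349 in BALB/cN and 886, 1085, 889 and 1175 in C57BL/6N, and the normalized level was 1319 ± 54.7 against 1089 ± 141 (SD, n = 4 each). The strains did not overlap by rlog value, as for 8.75% of all genes tested, but the rlog difference of 0.21 ± 0.07 (SE; limma, adjusted p = 0.119) did not pass the test. The corneas low in keratocyte transcripts were not low in Cd68: BALB/cN replicate 2 was within the range of its strain and C57BL/6N replicate 4 was the highest of its strain. With the keratocyte level as a covariate the difference was 0.24 (adjusted p = 0.0227). The rlog values of the strains did not overlap for 5 of the 27 markers, Cd68, Aif1, Lst1, Epcam and Cd3e, against 18.3% of all genes. Without overlap, the exact two-sided permutation p of 4 against 4 corneas is fixed at 0.0286, the smallest that it can be, and it adds nothing to that count.

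The pan-leukocyte and myeloid markers gave no call among 7 tested, with 6 means higher in BALB/cN and 1 lower and a median rlog difference of 0.19. Ptprc encodes CD45, the surface phosphatase that defines leukocytes. It had 32, 15, 59 and 64 reads in BALB/cN and 34, 41, 13 and 3 in C57BL/6N, a difference of 0.20 ± 0.17 (SE; limma, adjusted p = 0.525). Laptm5, a lysosomal protein of haematopoietic cells, was the marker with the most reads of this group, with 199, 62, 114 and 150 reads against 130, 182, 57 and 18. The strains overlapped for both genes, and the lowest cornea of each strain was one low in keratocyte transcripts.

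Fcer1g and Tyrobp encode the signalling adaptors that activating receptors of myeloid cells share. Fcer1g had 48, 16, 33 and 55 reads in BALB/cN and 33, 31, 8 and 4 in C57BL/6N, and Tyrobp 45, 2, 16 and 33 reads against 26, 10, 1 and 0. Their differences were 0.21 ± 0.14 and 0.19 ± 0.15 (SE). Cd53, a leukocyte tetraspanin, and Cd52, a small surface glycoprotein of lymphocytes and monocytes, had at most 22 and 18 reads in any cornea. Spi1, which encodes PU.1, was nearly even over all corneas, with 34 to 49 reads in BALB/cN and 30 to 53 in C57BL/6N and a difference of -0.06 ± 0.09 (SE).

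Across the 27 tested markers, the 3 corneas low in keratocyte transcripts were the lowest of their strain, in both strains at once, for 13 markers, against 14.7% of all genes tested. The 13 were Ptprc, Laptm5, Cd52, Tyrobp, Fcer1g, Csf1r, Adgre1, Mrc1, Mertk, Lyve1, Fcgr1, Fcgr3 and Csf3r, that is 5 of 7 pan-leukocyte and myeloid markers, 7 of 11 tested macrophage markers and the 1 tested neutrophil marker. For Lyve1, BALB/cN replicates 2 and 3 were both at 0 reads, so that its order there rests on library size scaling. Aif1 and Lst1 were not among the 13: BALB/cN replicate 2 had the highest reads of its strain for both, and C57BL/6N replicates 3 and 4 lay between the other corneas of their strain for Aif1. For Lst1, C57BL/6N replicate 3 was the highest of its strain at 89.8 normalized reads and replicate 4 the lowest at 61.4. The mean rlog value of the tested macrophage markers without Aif1 and Lst1 was 6.01, 5.42, 5.71 and 6.01 in BALB/cN and 5.86, 5.95, 5.30 and 5.27 in C57BL/6N. The 13 markers also followed another split. Except for Ptprc and Adgre1, their normalized reads in BALB/cN were highest in replicates 1 and 4, the corneas with lens and pigment transcripts. Cd163, not among the 13, was lowest in BALB/cN replicate 3, a cornea high in keratocyte transcripts, at 2 reads. The share of all genes with that order was not computed. The parts of stromal yield and of lens and pigment tissue in these levels were not tested, and no dissection record was used here.

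**Figure D4:**
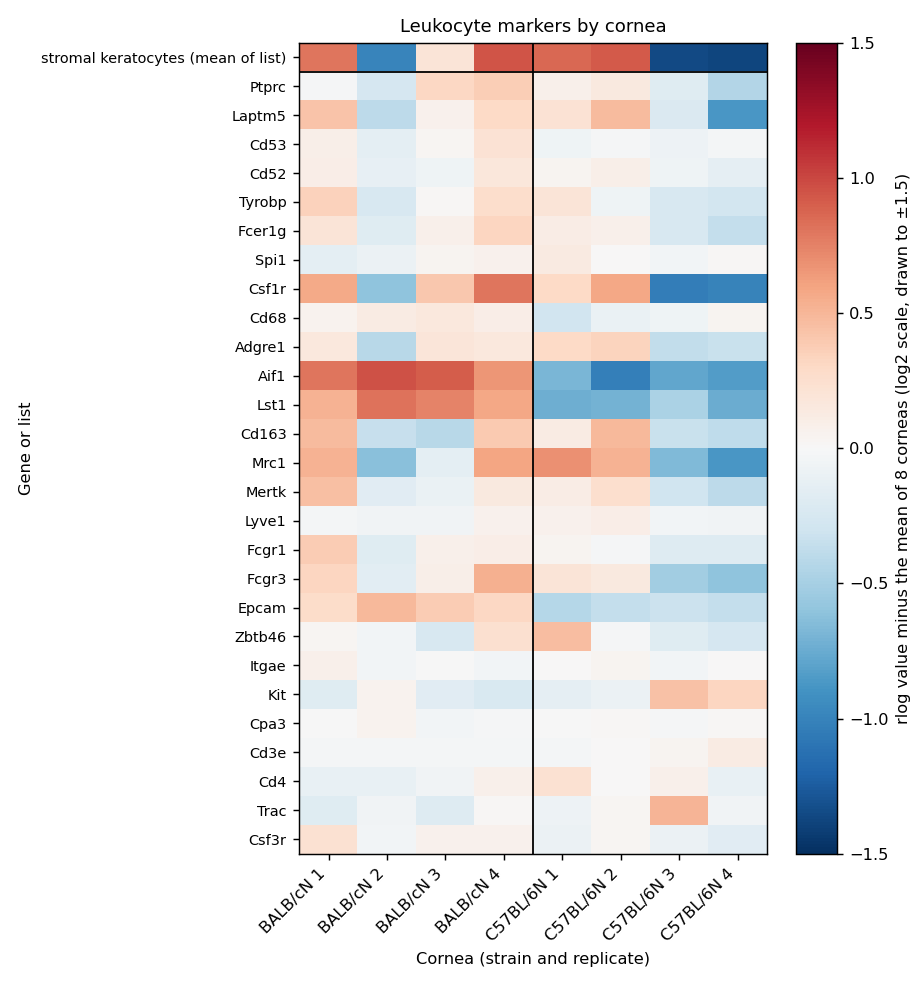
Deviation of the rlog value of each tested marker from its mean over the 8 corneas (colour, log2 scale), with corneas in columns by strain and replicate and the mean of the stromal keratocyte list in the top row. Most macrophage and myeloid rows share the blue columns of BALB/cN replicate 2 and C57BL/6N replicates 3 and 4 with the keratocyte row, whereas Aif1, Lst1 and Epcam divide at the line between the strains.

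The strain differences of the 3 called markers were of similar size without the corneas in doubt. Within the 5 corneas high in keratocyte transcripts the rlog differences were 1.65 for Aif1, 1.33 for Lst1 and 0.72 for Epcam, and between the 3 corneas low in them they were 1.76, 1.42 and 0.83. Without BALB/cN replicates 1 and 4, which held lens and pigment transcripts, they were 1.76, 1.44 and 0.80. The same 3 markers were called with the keratocyte covariate, where 9.52% of all genes were called, in the 5 corneas high in keratocyte transcripts (3.35% of all genes), without the corneas with lens and pigment transcripts (1.80%) and by voom on recovered reads (5.61%).

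Mast cell markers were present almost only as Kit. Kit, the stem cell factor receptor that mast cells, melanocytes and some epithelial cells carry, had 8600, 10447, 7919 and 7325 reads in BALB/cN and 7583, 8082, 10289 and 11022 in C57BL/6N. Per kb of exon it was 871 ± 104 and 1136 ± 294 normalized reads (SD, n = 4 each), beside 1049 and 866 for Cd68. The genes of mast cell granules were at or near 0. Cpa3, carboxypeptidase A3, had 0 to 6 reads, Mcpt4, a chymase, had 1 read in 1 cornea, and Fcer1a, the binding chain of the receptor for immunoglobulin E, had none. The rlog difference of Kit was -0.27 ± 0.13 (SE; limma, adjusted p = 0.251) and -0.18 (adjusted p = 0.0247) with the keratocyte covariate. It was the only tested marker for which the corneas low in keratocyte transcripts were the highest of their strain in both strains, as for 13.3% of all genes.

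T cell markers were few in reads, with 3 tested, all with the lower mean in BALB/cN and 0 called. Trac, the constant region of the T cell receptor alpha chain, had 4, 11, 3 and 14 reads in BALB/cN and 8, 14, 42 and 9 in C57BL/6N. The strains overlapped, and 1 cornea held most of the C57BL/6N reads. The rlog difference was -0.20 ± 0.13 (SE; limma, adjusted p = 0.389). Cd3e, a signalling chain of the receptor complex, had 0 reads in every BALB/cN cornea and 0, 2, 3 and 8 in C57BL/6N. The rlog values of the strains did not overlap, as for 9.58% of all genes, but 1 C57BL/6N cornea was also at 0 reads, so that the separation there rests on library size scaling, and at adjusted p = 0.224 the gene was not called. Cd4, a co-receptor that macrophages can carry too, had 0, 0, 3 and 10 reads against 19, 6, 8 and 0. Cd3g had 4 reads in 1 cornea and Cd8a none.

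No read was counted for the 3 NK cell markers Nkg7, Klrb1c and Ncr1, for the B cell marker Ms4a1 (CD20) or for the neutrophil marker Ly6g in any cornea. A count of 0 allows up to 3 reads in a library, a limit that covers counting error only. Cd79a, a chain of the B cell receptor complex, had 2 reads in 1 cornea. Csf3r, the receptor for granulocyte colony-stimulating factor on neutrophils and monocytes, had 27, 7, 13 and 13 reads in BALB/cN and 4, 10, 3 and 0 in C57BL/6N. Its strains overlapped, with an rlog difference of 0.15 ± 0.07 (SE; limma, adjusted p = 0.220).

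**Figure D5:**
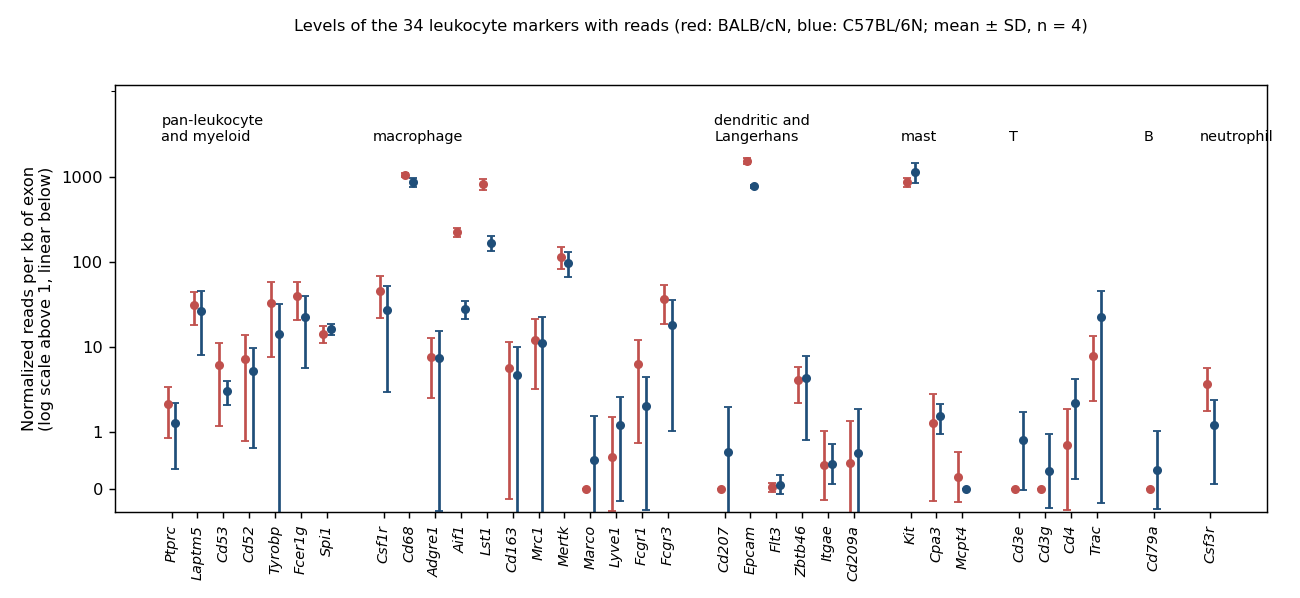
Normalized reads per kb of exon (vertical axis, logarithmic above 1 and linear below) of the 34 markers with reads, by lineage and strain, as mean ± SD over 4 corneas, with error bars cut at the lower edge. In BALB/cN, Epcam (1535), Cd68 (1049), Kit (871) and Lst1 (821) stand far above the rest, and Aif1 and Lst1 show the widest gaps between the strains.

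Ordered by normalized reads per kb of exon in BALB/cN, Epcam stood at 1535 ± 129, Cd68 at 1049 ± 43.5, Kit at 871 ± 104, Lst1 at 821 ± 118, Aif1 at 222 ± 28.2 and Mertk at 116 ± 33.6 (SD, n = 4 each). Kit and Lst1 did not differ beyond their spread. In C57BL/6N, Kit at 1136 ± 294, Cd68 at 866 ± 112 and Epcam at 775 ± 31.9 came first, with intervals of 1 SD that meet for Kit and Cd68 and for Cd68 and Epcam, followed by Lst1 at 168 ± 32.2 and Mertk at 98.3 ± 31.6. Aif1 at 28.0 ± 6.50 stood there beside Csf1r at 27.3 ± 24.4 and Laptm5 at 26.8 ± 18.7, whereas in BALB/cN Csf1r was at 45.8 ± 23.6. Lst1 has only 415 bases of annotated exon, so its level per kb rests on that length.

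Further genes of the same lineages, 84 in all of which 52 were tested, gave 1 call higher and 1 lower in BALB/cN, against 2.83% and 2.91% of all genes tested. Their median rlog difference was 0.09, against 0.01 over all genes. Ctss, the lysosomal protease cathepsin S of antigen-presenting cells, had 565, 476, 400 and 420 reads in BALB/cN and 96, 164, 96 and 134 in C57BL/6N, a difference of 1.06 ± 0.10 (SE; limma, adjusted p = 0.000133). Like Aif1 and Lst1 it separated the strains completely and was not lowest in the corneas low in keratocyte transcripts of both strains. S100a9, a calcium-binding protein abundant in neutrophils that stressed epithelia also make, had 6, 2, 2 and 21 reads in BALB/cN and 153, 157, 114 and 108 in C57BL/6N, a difference of -1.54 ± 0.12 (adjusted p = 3.95e-05). S100a8, the partner with which it forms calprotectin, had at most 14 reads in any cornea.

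By lineage, the 14 further pan-leukocyte and myeloid genes and the 10 further dendritic cell genes had 0 calls, the 19 further macrophage genes had Ctss as their 1 call, and the 9 further neutrophil genes had S100a9. The further mast cell, T cell, NK cell and B cell genes had 0 calls. Among those with the highest levels, Irf8, a transcription factor of dendritic cells and monocytes, had 139, 89, 112 and 92 reads in BALB/cN and 48, 57, 19 and 22 in C57BL/6N, a difference of 0.57 ± 0.12 (SE; limma, adjusted p = 0.0158). Mpeg1, the pore-forming perforin-2 of macrophages, had 68 to 430 reads against 6 to 125 (adjusted p = 0.154). Arhgdib, which is abundant in blood cells, had 1729 to 2212 reads against 180 to 1057, a difference of 1.36 ± 0.30 (adjusted p = 0.0165). With the keratocyte covariate, 5 of the 52 were called higher in BALB/cN and 1 lower, against 9.52% of all genes in either direction. They were Ctss, Irf8 (adjusted p = 0.00309), Arhgdib (0.00210), Mpeg1 (0.00776) and Cx3cr1, the fractalkine receptor of monocytes and macrophages, and, lower, S100a9. Csf2ra, a receptor chain for a myeloid growth factor, had 1189 to 1466 reads against 1026 to 1252. Its rlog difference was -0.03 ± 0.06 (SE; limma, adjusted p = 0.847). Itgam, the CD11b integrin chain, had 1296 to 1745 reads against 1299 to 1631. Normalized, that was 1383 ± 227 against 1654 ± 317 (SD, n = 4 each), an rlog difference of -0.19 ± 0.12 (SE; limma, adjusted p = 0.374).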

How the data were processed

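Total RNA of 8 naive corneas was sequenced as strand-specific paired reads by the authors, who trimmed them, removed ribosomal and transfer RNA reads, aligned them to strain pseudo-genomes of GRCm38 (TopHat2 2.1.1) and counted reads per Ensembl gene (HTSeq 0.7.1). Whether counting used strand is not given in the sources used here, which bears on markers that overlap other genes (Ptprc, Cd52, Csf1r, Mrc1, Mertk, Fcgr3, Zbtb46, Itgae, Cpa3, Cd3e). The authors deposited DESeq2 1.30 rlog values, which are log2 values scaled for library size. The number of per-sample columns left unused was 0.

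Strains were compared on these values with limma 3.58.1 (R 4.3.3) and a mean-variance trend. The fit and its Benjamini-Hochberg adjustment covered the 25402 genes whose rlog values averaged 0 or more. Differences are BALB/cN minus C57BL/6N. Exact two-sided permutation tests used scipy 1.17.1. Read counts were recovered by inverting the rlog model, with constants found from the values alone. Recomputed from whole reads, 99.4% of the rlog values of 19665 genes came out within 0.01. In genes left out of the fit, 93.1% of counts were within 0.1 of a whole number at means of 100 to 1000 reads but 62.5% at 1000 to 5000, so the reads of Epcam and Cd68, and those of Kit above them, are less exact. Normalized reads are recovered reads divided by size factors. PCR copies of a molecule were counted as separate reads, so limits cover counting error only. Positions and exon lengths came from GENCODE M21 (GRCm38).

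All 41 markers are named. Of the further genes, those called and the up to 3 with the highest mean per list could be named, Cx3cr1, Muc5ac and Krt8 were added after their values were seen, and the lists and the markers were chosen with earlier results of these data known. The procedures were tested on simulated data with known changes, where limma called 148 of 200 changed genes and 1 unchanged gene. At means of 1 to 10 reads it called 0 of 14 genes with a log2 change of 1 and 7 of 15 with a change of 3. The simulated corneas did not differ in keratocyte content, so the simulation does not cover that spread. Its spread between replicates was also set lower than the dispersion recovered with the rlog constants, 0.0384 plus 8.09 divided by the mean. Its rates of detection can therefore be too high for these corneas. Alternatives were a fit without the trend, a robust fit, other filters, median centring, quantile normalization, an empirical null, a threshold of 0.05, a replicate block, each cornea left out, the keratocyte covariate and voom, and, chosen after seeing the data, fits without the corneas low in keratocyte transcripts or without those holding lens and pigment transcripts.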

Additional observations from a re-analysis of the deposited data

Results flagged for a closer look

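In 54 groups of 4 corneas (27 markers in 2 strains), the gap between the most distant cornea and its nearest neighbour was compared with the range of the strain by Dixon's test at its 95% critical value, which chance exceeds in about 1 of 20 groups. It was exceeded in 3 groups, with 2.7 expected. Adgre1 in BALB/cN replicate 2, a cornea low in keratocyte transcripts with 0 reads of the gene against 34 to 38 in its strain, had a gap of 0.954 of the range. Lst1 in C57BL/6N replicate 3, the highest of its strain, had 0.871, and leaving that cornea out gave a strain difference of 1.39 (adjusted p = 6.98e-05). Lyve1 in BALB/cN replicate 4, with 6 reads against 0 to 1, had 0.844.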

How the results depend on the processing

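The call of Aif1, Lst1 and Epcam, and of no other marker, was the same under each alternative at the 0.01 threshold except p-values recalibrated to an empirical null (standard deviation 1.668), under which 0 markers, 0 markers without Aif1 and Lst1, and 0 of all genes were called. At an unadjusted p under 0.05 the empirical null left 3 markers and 1730 genes, and the adjusted p was 0.215 for Aif1, 0.250 for Lst1 and 0.265 for Epcam. An adjusted p threshold of 0.05 added no marker but raised the count of all genes from 1458 to 2842. Corneas of the same replicate number did not deviate together, with correlations of 0.31, -0.53, -0.20 and -0.45, and with the replicate block, which therefore pairs by number alone, 554 genes and the 3 markers were called. All genes called numbered 958 with median centring, 2418 with the keratocyte covariate, 852 in the corneas high in keratocyte transcripts, 457 without the corneas with lens and pigment transcripts, the last 2 settings chosen after seeing the data, and 951 to 1162 with 1 cornea left out, lowest without BALB/cN replicate 3 (971) and C57BL/6N replicate 4 (951), while the counts stayed at 3 markers and 1 marker without Aif1 and Lst1. With 1 cornea left out, Aif1 ranged from 1.6 to 1.72, Lst1 from 1.28 to 1.39 and Epcam from 0.69 to 0.76. Median centring moved the median of all genes from 0.01 to -0.07.

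The sign turned in 11 markers that were not called under any setting, and the cause was not tested. In the corneas high in keratocyte transcripts the difference was -0.0891 for Laptm5, -0.151 for Adgre1, -0.154 for Cd163, -0.276 for Mrc1 and -0.0165 for Mertk. Without the corneas with lens and pigment transcripts it was -0.0718 for Laptm5, -0.0173 for Cd53, -0.0728 for Cd52, -0.0125 for Tyrobp, -0.101 for Adgre1, -0.354 for Cd163, -0.301 for Mrc1, -0.0480 for Mertk and 0.00353 for Cpa3. With the keratocyte covariate it was -0.00371 for Cd52, -0.104 for Adgre1, -0.106 for Cd163 and -0.119 for Mrc1, with median centring -0.0338 for Cd52, -0.0362 for Adgre1 and -0.0216 for Cd163, and with voom -0.126 for Adgre1, -0.0484 for Cd163 and 0.0361 for Zbtb46. With 1 cornea left out the ranges were -0.0656 to 0.385 for Laptm5, -0.00918 to 0.0876 for Cd52, -0.0799 to 0.184 for Adgre1, -0.0972 to 0.222 for Cd163, -0.0907 to 0.429 for Mrc1, -0.0878 to 0.151 for Zbtb46, -0.0271 to 0.0101 for Itgae and -0.0282 to 0.00459 for Cpa3. Few reads limit the markers at 10 reads or fewer. Their rlog differences are shrunk towards 0 and have narrow intervals. Their voom intervals are wide, at -3.09 to 1.74 for Itgae and -2.62 to 1.18 for Cpa3.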
